A study of Mus musculus with 24 samples.

Results

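Lens fiber cells were compared with lens epithelium at E18.5 of embryonic life, in 3 libraries of each tissue out of 24 libraries in the series. The mice were CD1, an outbred albino stock, with no transgene or treatment given in the labels. The E18.5 lenses were separated by microdissection into epithelium and fiber. Total RNA was depleted of ribosomal RNA and sequenced as stranded 100 bp read pairs. The other 18 libraries hold the same tissues at E14.5, E16.5 and 0.5 days after birth (P0.5). All 12427 genes that passed a filter on low counts, of 12611 in the table, were compared. Whether a library pools several animals is not stated in the labels, so p-values measure the spread between libraries.

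The lens epithelium is a sheet of cells under the anterior capsule. Near the equator its cells leave the cell cycle and turn into fiber cells, which elongate, fill with crystallins, join through gap junctions and later degrade their nuclei and other organelles. Growth factors of the FGF family drive this step, and transcription factors such as Pax6, Maf, Sox1, Prox1 and Hsf4 act in it.

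Levels are CPM (counts scaled to a common library total) relative to a TMM-scaled library size, and differences are log2 fiber minus epithelium. A gene was called higher or lower at an edgeR adjusted p under 0.05 and a difference of at least 2-fold. On this rule 2162 genes rose in fiber (17.4% of those tested) and 3006 fell (24.2%), 41.6% in either direction, and these shares are the background for the counts below. The scaling matters here. Crystallins took 33.9% ± 3.93 (SD, n = 3) of the fiber counts and 2.61% ± 0.0461 of the epithelium counts. TMM put the median difference of all genes at -0.03, while scaling to the library total alone put it at -1.52 and called 537 genes higher (4.32%) and 8557 lower (68.9%). The total without crystallins put it at -0.95, with 820 higher (6.6%) and 5977 lower (48.1%), and the total without crystallins and the ribosomal RNA precursor Rn45s put it at -0.70, with 1004 higher (8.08%) and 5002 lower (40.3%). The 537 higher and all 3006 lower TMM calls held under 5 scalings (TMM, DESeq2 size factors and these 3). Each alternative put the median difference below that of TMM (-0.04 with DESeq2 size factors). The lower calls were therefore bound to hold, as were rises far above 2-fold. Holding under 5 scalings is a check of the smaller rises only.

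Total counts were 7658794 to 9707224 in the epithelium libraries and 17012093 to 21116574 in the fiber libraries. Replicates differed beyond counting noise, with a chi-square per degree of freedom of at least 4.50 between any pair. Fiber replicate 2 stood apart, with 28.9% of its counts in Rn45s against 8.91% and 6.55% in fiber replicates 1 and 3. Without it 2157 genes were higher and 2992 lower. The labels held: the fiber gene Mip lay between 19153 and 21059 CPM in fiber and between 269.6 and 399.5 CPM in epithelium, and the epithelium gene Foxe3 lay between 130.3 and 221 CPM in epithelium and between 11.3 and 14.2 CPM in fiber.

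**Figure D1:**
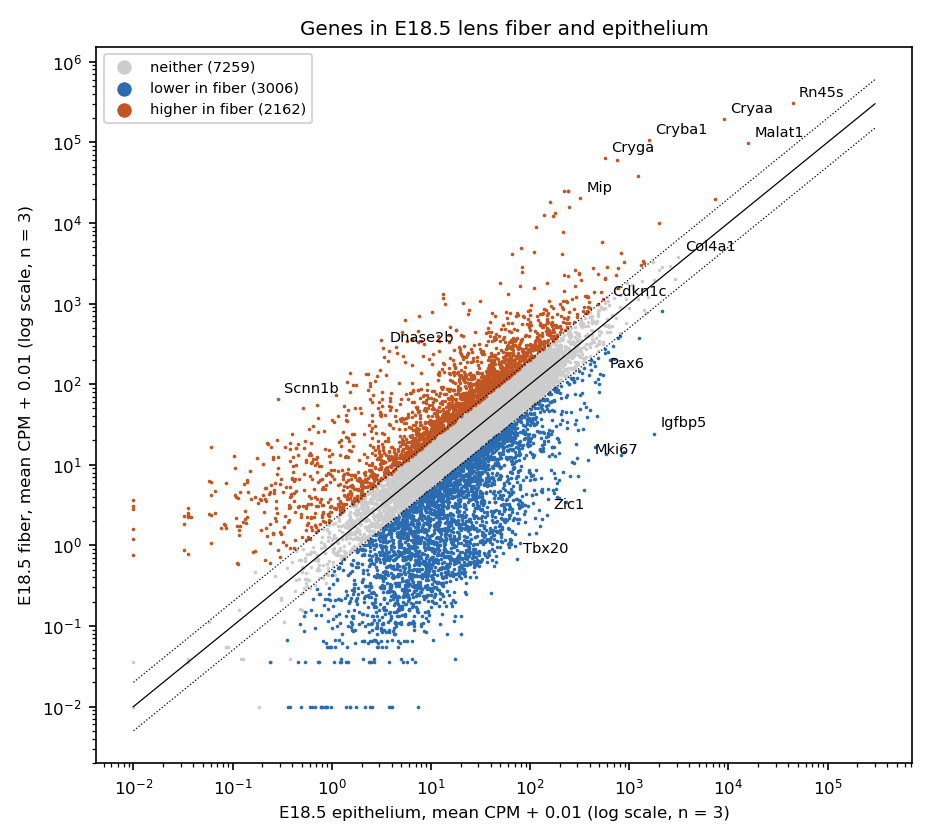
Mean level of each of 12427 genes in E18.5 epithelium (x) and E18.5 fiber (y), both in CPM + 0.01 on log scales, n = 3 libraries each. The solid line marks equal levels and the dotted lines a 2-fold difference under TMM; 2162 genes are higher and 3006 lower, while under library size alone the counts were 537 and 8557.

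Sequences upstream of the genes of the pathway lists with the highest and the lowest median are shown first. Of 27 mitosis genes tested, 26 fell in fiber. RefSeq promoter windows (GRCm38.p6, 250 bases before to 50 after a start) were at hand for 23 of them, in 24 windows. The cell cycle homology region, TTTGAA, an element known from promoters of genes of G2 and mitosis, stood on either strand in 18 of these 24 windows (75%), against 11.7% of 12261 windows of all tested genes and 17.9% of all 32851 windows. The CCAAT box, CCAAT on either strand, stood in 79.2% of the mitosis windows and in 37.7% of the windows of tested genes. In 2869 windows of the genes called lower under 5 scalings, TTTGAA stood in 13.9% and the CCAAT box in 36.6%. The 4 stretches below are the 150 bases just before the RefSeq start, 5′ to 3′ on the gene's strand, with both elements in capitals (TTCAAA and ATTGG are the other strand); they were chosen because both elements lie close to the start.
Cdc20 (chr4:118437344-118437493, minus strand): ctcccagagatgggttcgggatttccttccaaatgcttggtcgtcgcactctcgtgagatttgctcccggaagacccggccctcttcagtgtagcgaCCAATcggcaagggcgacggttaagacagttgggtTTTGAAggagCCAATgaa
Prc1 (chr7:80294326-80294475, plus strand): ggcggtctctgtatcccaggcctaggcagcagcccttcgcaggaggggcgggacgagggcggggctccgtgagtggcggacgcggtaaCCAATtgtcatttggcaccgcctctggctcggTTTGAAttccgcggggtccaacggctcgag
Top2a (chr11:99024190-99024339, minus strand): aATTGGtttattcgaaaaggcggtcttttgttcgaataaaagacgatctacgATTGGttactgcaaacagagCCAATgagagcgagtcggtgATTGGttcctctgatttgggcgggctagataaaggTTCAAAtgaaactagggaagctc
Cdk1 (chr10:69352913-69353062, minus strand): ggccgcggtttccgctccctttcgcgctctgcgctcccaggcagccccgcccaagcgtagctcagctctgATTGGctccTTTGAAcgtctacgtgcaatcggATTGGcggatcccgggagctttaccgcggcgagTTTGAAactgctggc

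Of the 16 crystallins, all called higher, 15 had a window. The half-site of Maf factors, TGCTGA on either strand, stood in 10 of these 15 windows (66.7%), against 15.3% of windows of tested genes and 21.5% of 550 windows of the genes called higher under 5 scalings. The next 4 stretches, of 1 alpha and 3 beta crystallins, are cut in the same way with the Maf half-site in capitals, and in Cryba1 also a CCAAT box. They were chosen among crystallins with a half-site in these 150 bases, so they need not be typical of the 300-base windows counted. Cryba4 and Crybb1 are neighbours on chromosome 5, transcribed away from each other. A match describes these letters in these windows and is not a measured binding site.
Cryaa (chr17:31677781-31677930, plus strand): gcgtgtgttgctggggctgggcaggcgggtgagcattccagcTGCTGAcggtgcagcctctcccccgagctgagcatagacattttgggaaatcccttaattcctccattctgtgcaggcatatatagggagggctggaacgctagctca
Cryba1 (chr11:77725294-77725443, minus strand): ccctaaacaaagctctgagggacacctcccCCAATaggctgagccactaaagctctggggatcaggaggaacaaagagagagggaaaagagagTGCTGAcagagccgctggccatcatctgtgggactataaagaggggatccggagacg
Cryba4 (chr5:112252519-112252668, minus strand): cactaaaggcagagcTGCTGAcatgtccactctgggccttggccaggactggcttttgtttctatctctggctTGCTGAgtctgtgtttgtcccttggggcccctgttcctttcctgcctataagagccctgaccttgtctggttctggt
Crybb1 (chr5:112255670-112255819, plus strand): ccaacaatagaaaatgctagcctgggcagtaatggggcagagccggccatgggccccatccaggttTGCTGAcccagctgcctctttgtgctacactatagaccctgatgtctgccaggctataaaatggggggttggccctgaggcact

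Among genes that reached a mean of 50 CPM, Scnn1b, which encodes a chain of the epithelial sodium channel, rose most. Its level was 0.266, 0.255 and 0.310 CPM in the 3 epithelium libraries and 65.9, 63.4 and 64.8 CPM in the 3 fiber libraries (log2 7.82 ± 0.23 SE, 226-fold, edgeR adjusted p = 5.61e-19). The groups were far apart and the fiber libraries nearly equal. Pgam2, the muscle form of the glycolytic enzyme phosphoglycerate mutase, stood at 3.06, 3.57 and 2.79 CPM in epithelium and at 345, 355 and 349 CPM in fiber (log2 6.80 ± 0.18 SE, edgeR adjusted p = 5.48e-20). Kcnj6, an inwardly rectifying potassium channel, rose by log2 6.68, from 0.498 ± 0.263 CPM (SD, n = 3) to 50.1 ± 3.89 CPM. Pla2g7, a secreted phospholipase that degrades platelet-activating factor, rose by 6.62 to 1304 ± 78.1 CPM. The connexin-family gene Gje1 rose by 6.51 to 695 ± 75.2 CPM, and Lenep, the lens epithelial protein gene, by 6.45 to 1156 ± 66.0 CPM. In spite of its name, Lenep stood at 13.3 ± 3.42 CPM in epithelium. Dnase2b, the acid DNase that degrades the DNA of fiber nuclei, stood at 3.79, 3.31 and 2.72 CPM in epithelium and at 269, 292 and 274 CPM in fiber (log2 6.4 ± 0.21 SE). Fam89a rose by 6.48 and Mypn, which encodes the sarcomere protein myopalladin, by 6.41 (± 0.73 SE, the widest error among the 15 leading rises). On GRCm38 (GENCODE M21) Scnn1b lies at chromosome 7, 121865038 to 121918514, Pgam2 at chromosome 11, 5801640 to 5803733, and Dnase2b at chromosome 3, 146580985 to 146615596, all protein-coding.

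Among genes that reached a mean of 50 CPM and met the rule for named genes, the largest falls were those of Tbx20, a T-box transcription factor (log2 -6.73 ± 0.44 SE), Optc, the eye proteoglycan opticin (-6.48), the transporter gene Slc16a10 (-6.46), Col9a1, a collagen IX chain (-6.26), and Crhbp, which binds corticotropin-releasing hormone (-6.26). Tbx20 stood at 79.8, 65.3 and 75.5 CPM in epithelium and at 0.777, 0.532 and 0.691 CPM in fiber (edgeR adjusted p = 1.06e-12). Zic4 (-6.19), Zic1 (-6.12) and Otx1 (-6.02), transcription factor genes, and Lrp2 (-6.17), Cdh11 (-6.16), Rhoj (-6.08), R3hdml (-6.08) and Fbn2 (-6.02) followed. Of the 15 leading falls, Tbx20, Optc, Col9a1, Zic4, Zic1 and Otx1 are also on the list of retina and ciliary margin markers, which was written with earlier results of these data known. The 16 counted genes of that list summed to 986.8 to 1262 CPM in E18.5 epithelium and to 16.8 to 28.9 CPM in E18.5 fiber, a sum that these 6 genes are part of. The other 10, written with the same results known, summed to 246.4 to 365.8 CPM in epithelium and to 8.55 to 12.4 CPM in fiber, and 9 of the 10 fell. The part of such tissue in these falls was not tested. Igfbp5, which binds insulin-like growth factors, stood at 1928, 1999 and 1392 CPM in epithelium and 27.5, 21.7 and 23.9 CPM in fiber (log2 -6.18 ± 0.31 SE). Gja1, the gap junction gene connexin 43, stood at 784, 806 and 908 CPM in epithelium and at 11.7, 14.9 and 13.1 CPM in fiber (log2 -5.99 ± 0.22 SE, edgeR adjusted p = 1.44e-17). All 30 leading genes held under 5 scalings and without each E18.5 library in turn. The falls were bound to hold under the scalings. So were these rises: the smallest was 6.4, while the scalings moved the median difference of all genes only from -0.03 to -1.52. In bulk RNA, fewer cells of a type and less RNA per cell cannot be told apart.

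**Figure D2:**
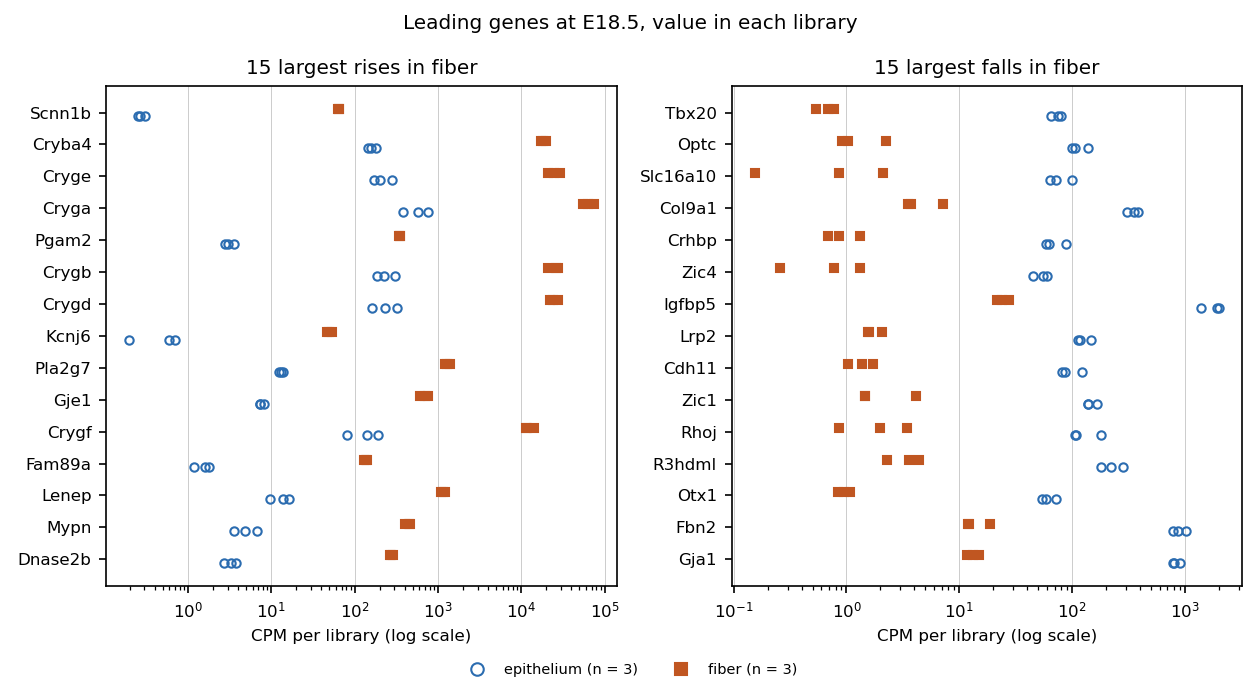
Level in each library (CPM, log scale) of the 15 leading rises and 15 leading falls in E18.5 fiber; open circles are 3 epithelium and filled squares 3 fiber libraries. The genes were picked for their large differences in these libraries, so their groups do not overlap, as in 83.2% of all genes tested. The 15 leading rises reach from log2 6.4 (Dnase2b) to 7.82 (Scnn1b).

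Markers of neighbouring tissues were mostly higher in the epithelium libraries. Endothelium markers, as of the vessels around the fetal lens, summed to 348.7 to 479.5 CPM in epithelium and 11.3 to 34.4 CPM in fiber, and 10 of 10 fell in fiber. Mural cell markers summed to 431.5 to 509.5 against 38.7 to 50.8 CPM (8 of 8 fell), mesenchyme and sclera markers to 516.4 to 611.7 against 62.8 to 82.6 CPM (7 of 8), and macrophage markers to 12.7 to 20.7 against 1.38 to 2.996 CPM (5 of 6). Of the retina and ciliary margin list 15 of 16 fell, and Rcvrn, which encodes recoverin, rose (2.38, not under library size alone). Of 9 pigment cell markers 8 fell, with a sum of 236.8 to 272.1 against 89.6 to 98.0 CPM; the ninth, Mitf (0.92), was not called. Of 5 red cell markers tested 3 fell. Of 3 cornea and surface epithelium markers 2 fell and 1 rose (1.81, not under library size alone). Their sum was 535.6 to 601.4 CPM in epithelium and 146.7 to 157.6 CPM in fiber. For each fall below, the part of these tissues was not tested.

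All 16 crystallins, the structural proteins of the lens, rose in fiber, 15 of them under 5 scalings, with a median difference of 6.16. Cryaa, the alpha-crystallin chaperone subunit, stood at 9560, 8787 and 8892 CPM in epithelium and at 186070, 204680 and 189150 CPM in fiber (log2 4.41 ± 0.15 SE, edgeR adjusted p = 3.35e-18). Cryab, the other alpha subunit, made in many tissues, rose least (2.35 ± 0.15 SE), from 1974 ± 122 to 10096 ± 1341 CPM, and lost its call under library size alone. Per kilobase of transcript, Cryaa stood 3.28 times above Cryab in epithelium and 13.7 times above it in fiber. The gamma crystallin Cryga stood at 578, 755 and 387 CPM in epithelium and at 55348, 73811 and 63021 CPM in fiber (log2 6.81 ± 0.31 SE). Reads of the near-identical gamma crystallins may be shared, so single values of Cryga to Crygf are uncertain. The beta crystallins rose by 4.97 (Crybb3) to 6.84 (Cryba4), with Crybb2 (5.58), Cryba2 (5.98), Cryba1 (6.08) and Crybb1 (6.31) in between.

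Of 15 genes of the beaded filament, the fiber-specific cytoskeleton, and of the fiber membrane, 14 rose, 12 of them under 5 scalings (median 4.90). Bfsp1, the filament protein filensin, stood at 127, 136 and 80.1 CPM in epithelium and at 8839, 9222 and 8258 CPM in fiber (log2 6.26 ± 0.17 SE, edgeR adjusted p = 1.59e-19), and Bfsp2, its partner, rose by 4.90. Mip, the water channel aquaporin 0, rose by 5.99, and Lim2, an integral fiber membrane protein, by 5.33. Gja3, the gap junction gene connexin 46, rose by 3.18 to 2211 ± 63.2 CPM. Aqp5, another water channel, rose by 4.18 at a low level, from 0.220 ± 0.119 to 4.27 ± 0.170 CPM. Hspb1, a small heat shock protein, rose by 4.92. Cadm1, an adhesion molecule (0.80), was not called.

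The membrane skeleton under the fiber plasma membrane is a net of spectrin and short actin filaments. Of 21 of its genes 13 rose and 5 fell (median 1.51), and 5 of the rises held under 5 scalings. Tmod1, which caps actin filaments, stood at 1.995, 2.12 and 2.56 CPM in epithelium and at 143, 131 and 121 CPM in fiber (log2 5.89 ± 0.14 SE), while Tmod3, its broadly expressed relative, fell (-2.27). Dmtn, the spectrin-actin adaptor dematin, rose by 4.45, Sptbn1, a beta spectrin, by 3.42 to 5739 ± 332 CPM, and Add2, an adducin, by 3.30, whereas Add3 (-1.48) and the tropomyosins Tpm1 (-1.98) and Tpm4 (-1.57) fell. Adducins and tropomodulins thus went both ways, each family with a member higher and a member lower. Of 20 tubulin and microtubule genes 9 rose and 4 fell. Tubb2a (3.44) and Tubb6 (3.15) rose under 5 scalings, and Stmn1, which destabilises microtubules, fell (-3.47). Reads of near-identical tubulins may be shared.

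Of 19 adhesion genes tested 5 rose and 7 fell. Cdh1, E-cadherin of epithelia, stood at 459.7, 517 and 389 CPM in epithelium and at 15.3, 15.2 and 19.05 CPM in fiber (log2 -4.77 ± 0.12 SE, edgeR adjusted p = 2.55e-20). Cdh2, N-cadherin, was not called (0.52), with 481 ± 37.0 CPM in epithelium and 691 ± 27.4 CPM in fiber. The tight junction genes Cldn1 (-5.82) and Ocln fell; Ocln had 340 counts in epithelium and 3 in fiber, a ratio of 91.7 relative to the TMM-scaled library sizes (95% interval 31.1 to 447, counting error only). The alpha catenin Ctnna2 (4.51), the plakophilin Pkp2 (2.69) and the junction scaffold Tjp1 (2.53) rose under 5 scalings.

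Ephrins and their Eph receptors, which sort and align neighbouring cells, were mostly lower in fiber: 14 of 18 tested fell and 1 rose (median -1.67). Efna1 (-4.86), Ephb6 (-3.86) and Epha7 (-3.24) fell. Epha2, a receptor known for its part in fiber cell shape, was the 1 that rose (2.01, edgeR adjusted p = 1.44e-12), a call lost under library size alone. Of 17 integrin adhesion genes 3 rose and 6 fell. Itga6, of a laminin receptor, rose under TMM (1.97) and Itga2, of a collagen receptor, rose (3.64, the call that held under 5 scalings), while Itga3 (-5.44), Itga1 (-4.70), Itga4 (-4.17) and Itga5 (-3.98) fell. Of 21 capsule and basement membrane genes 12 fell and 1, Lama3 (2.0), rose under TMM. Lama4 (-5.45), the collagen XVIII gene Col18a1 (-4.65) and agrin, Agrn (-4.0), fell, and Lama4 and Col18a1 are also genes of vessel walls. The main capsule collagens Col4a1 (0.26) and Col4a2 (0.15) and the laminin chain Lama1 (-0.32) were not called under TMM.

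Of 18 transcription factors known from fiber differentiation 8 rose and 5 fell, and 3 rises held under 5 scalings. Hsf4, a heat shock factor of the lens, stood at 5.79, 5.27 and 5.98 CPM in epithelium and at 340.5, 344 and 335 CPM in fiber (log2 5.90 ± 0.10 SE, edgeR adjusted p = 2.44e-22). Maf, a driver of crystallin genes, rose from 313 ± 31.6 to 2412 ± 170 CPM (2.95), and Sox1 by 2.57. Prox1 (1.64) and the stress factor Atf4 (2.28) rose under TMM and not under library size alone. Sox11 (-3.69) and Etv4 (-1.60) fell, and Pitx3 (0.81) was not called. Of 18 factors of lens progenitors and epithelium 12 fell and 0 rose (median -2.19). Foxe3, which keeps the epithelium dividing, fell by 3.77 on the log2 scale and Pax6 by 2.07, from 547 ± 33.7 to 131 ± 5.22 CPM. Mab21l2 (-5.74), Six6 (-5.55) and Lef1 (-5.12) fell further, and Six6 is also on the retina list. Six3 (0.17), Meis2 (0.33) and Hey1 (-0.52) were not called. Of 14 membrane and secreted markers of the epithelium 10 fell, among them the water channel Aqp1 (-5.09), the heparan sulfatase Sulf1 (-4.97) and Npnt, nephronectin (-3.50). The 1 that rose, Cryaa, is on this list as a gene that the epithelium also expresses.

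Cell division genes fell nearly as a whole. Of 27 genes of mitosis and the kinetochore 26 fell (median -5.08), among them Kif23 (-5.57), Cenpa (-5.44), the cyclins Ccnb1 (-5.39) and Ccna2 (-5.34), and Cdk1 (-5.24). The spindle checkpoint kinase Bub1 stood at 36.8, 37.2 and 36.8 CPM in epithelium and at 1.04, 0.266 and 0.845 CPM in fiber (log2 -5.55 ± 0.17 SE). Mki67, the Ki-67 protein of dividing cells, stood at 366, 395 and 392 CPM in epithelium and at 10.6, 11.97 and 11.5 CPM in fiber (log2 -5.08 ± 0.17 SE, edgeR adjusted p = 2.71e-18). Cdca8, borealin, was the exception (-0.82), with 20.02 ± 0.486 against 11.2 ± 2.34 CPM. Replication genes fell less: 26 of 27 fell with a median of -2.75, from Rrm2 (-5.52), a subunit of ribonucleotide reductase, Orc1 (-5.04), Cdc6 (-4.91) and Mcm6 (-4.80) to Pcna (-2.44), Mcm2 (-1.54) and Rfc3 (-1.25). Mcm10, a replication initiation factor, was the 1 not called: it stood at 16.7, 18.9 and 16.0 CPM in epithelium and at 18.2, 16.9 and 13.7 CPM in fiber (log2 -0.08 ± 0.14 SE, edgeR adjusted p = 0.591), and the groups overlapped. The subunits of the Mcm2 to Mcm7 helicase, which act as a complex, were spread from -1.54 (Mcm2) to -4.80 (Mcm6).

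Genes of cell cycle exit were split. Of 18, 1 rose (Ccng1, cyclin G1, 2.73, under 5 scalings) and 7 fell. The cyclin-dependent kinase inhibitors known to hold fiber cells out of the cycle were not called: Cdkn1c (p57) stood at 668, 519 and 535 CPM in epithelium and at 1077, 1011 and 1039 CPM in fiber (log2 0.86 ± 0.09 SE), which is under 2-fold, and Cdkn1b (p27) differed by 0.31. Cdkn1a (p21) fell (-3.41) at a low level, from 2.75 ± 0.941 to 0.230 ± 0.135 CPM. The antiproliferative gene Btg1 fell (-3.55), as did the D cyclins Ccnd1 (-1.20) and Ccnd2 (-1.20).

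FGF receptors and their feedback genes went both ways, with 4 of 17 higher and 7 lower. Fgfr3 rose under TMM (2.19 ± 0.10 SE), and Fgfr1 (0.54) and Fgfr2 (0.08) were not called. Among feedback inhibitors of FGF signalling, Spry1 stood at 9.18, 5.69 and 7.14 CPM in epithelium and at 82.8, 86.7 and 83.8 CPM in fiber (log2 3.50 ± 0.14 SE), and Spry2 rose by 2.24 under TMM. Others fell: Dusp6, a phosphatase of ERK, stood at 40.8, 39.2 and 33.3 CPM in epithelium and at 6.91, 8.51 and 6.68 CPM in fiber (log2 -2.38 ± 0.14 SE), and Il17rd (Sef) fell by 5.19 on the log2 scale. The target Etv5 rose under TMM (1.63) while Etv4 fell (-1.60). Of these, the Spry1 call was the 1 rise that held under 5 scalings.

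Notch genes were mostly lower, with 14 of 19 lower and 2 higher (median -2.49). The receptors Notch2 (-3.05), Notch3 (-2.49) and Notch1 (-1.24), the ligands Dll4 (-4.46) and Dll1 (-3.96) and the targets Hes1 (-3.71), Heyl (-3.70) and Hes5 (-3.15) fell. Dll4, Notch4 and Notch3 are also genes of vessels, and Notch3 is on the mural list. The ligand Jag1 (1.37) and the Notch receptor modifier Lfng (1.13) rose under TMM and not under library size alone. In the BMP and TGF-beta list 4 of 27 rose and 11 fell (median -0.87), and 1 of the rises, that of Id2, held under 5 scalings. The ligands Bmp4 (-7.47), Bmp2 (-6.08) and Bmp7 (-2.23) fell, and Grem1, a BMP antagonist, had 683 counts in epithelium and 1 in fiber, a ratio of 552.7 on the same scale (95% interval 98.9 to 21860). The Id genes, BMP targets, split: Id2 rose (4.25, from 20.9 ± 2.19 to 398 ± 11.6 CPM) and Id1 rose (2.05, TMM), while Id3 fell (-2.55). Of 27 Wnt genes 15 fell and 5 rose (median -1.71). The ligands Wnt7a (4.11) and Wnt7b (2.01) rose while Wnt2b (-4.60) and Wnt5a (-3.47) fell, the antagonists Dkk3 (2.66) and Sfrp1 (1.63) rose while Wif1 (-5.69) and Sfrp2 (-3.92) fell, and the receptors Fzd2 (-4.48), Fzd8 (-3.84) and Fzd7 (-3.60) and the target Axin2 (-2.18) fell. Of the rises, Wnt7a and Dkk3 held under 5 scalings.

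Maturing fiber cells lose their nuclei and organelles. Beside Dnase2b, no other of 23 genes of the nuclear lamina, pores and chromatin degradation rose. The lamina genes Tmpo (-3.39), Lmnb1 (-3.07), Sun2 (-3.01) and Lbr (-2.20) fell, while Lmna (0.03) and the apoptotic nuclease subunits Dffa (0.05) and Dffb (0.01) were not called under TMM. Of 25 autophagy and mitophagy genes 13 rose and 0 fell under TMM (median 1.02), but under library size alone 1 rose and 7 fell (median -0.47, against -1.52 for all genes). The gene that held was Gabarapl1, of the Atg8 family that coats autophagosomes, with 23.1, 25.8 and 21.3 CPM in epithelium and 242, 255 and 227 CPM in fiber (log2 3.36 ± 0.08 SE, edgeR adjusted p = 5.53e-21). Atg9a (2.25), Wipi1 (2.16) and the mitophagy receptor Bnip3 (1.71) rose under TMM. Lysosome genes followed with 7 of 24 higher and 3 lower under TMM and 0 higher under library size alone. Mcoln1 (1.66) and Lamp1 (1.38) were among the former, and Ctsh (-4.02) and Lipa (-1.93) fell.

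Of 22 ubiquitin and heat shock genes 11 rose and 1 fell, with 4 rises under 5 scalings (median 0.99 under TMM, -0.50 under library size alone). Hspb1 (4.92), Uchl1, a ubiquitin hydrolase (3.75), Dnajb1 (3.38) and the polyubiquitin gene Ubb (2.58) rose, while Hspa5, the chaperone of the endoplasmic reticulum, fell (-1.06). Atf4 and its known targets Asns (1.89) and Herpud1 (1.57) rose under TMM, and of 23 genes of amino acid synthesis and tRNA charging 11 rose and 2 fell under TMM, 1 of which (Cars, 2.79) rose under 5 scalings. Of 19 ER stress genes 4 rose and 2 fell under TMM, 0 of the rises held under 5 scalings, and Ddit3 (0.89) and Xbp1 (0.04) were not called.

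Energy metabolism differed gene by gene. Of 24 oxidative phosphorylation genes 14 rose and 0 fell under TMM (median 1.36), such as Sdhb (1.91), Cox5a (1.79) and Atp5b (1.70), and 0 rose and 6 fell under library size alone (median -0.12). In glucose uptake and glycolysis 8 of 23 rose and 6 fell under TMM, and 0 rose under library size alone. The glycolytic gene Pgam2 is not on this list, and it rose under 5 scalings (6.80). The monocarboxylate transporter Slc16a1 stood at 178, 178 and 182 CPM in epithelium and at 6.65, 7.58 and 6.30 CPM in fiber (log2 -4.73 ± 0.12 SE), the lactate dehydrogenase subunit Ldhb fell by 4.56 on the log2 scale and the glucose transporter Slc2a1 by 1.75, from 1241 ± 117 to 369 ± 28.6 CPM. Aldoc (2.25), Pfkfb3 (1.55) and Pfkl (1.20) rose under TMM. Of 25 cholesterol synthesis genes 14 rose and 0 fell under TMM (median 1.13, -0.35 under library size alone), led by Lss, lanosterol synthase (2.49, under 5 scalings), Fdft1 (2.19) and Fdps (2.01). Of 28 glutathione and redox genes 5 rose and 8 fell. Hmox1, heme oxygenase 1, stood at 8.18, 11.2 and 6.13 CPM in epithelium and at 334, 340.1 and 279 CPM in fiber (log2 5.23 ± 0.21 SE), Gss, glutathione synthetase, rose by 3.98 to 705 ± 6.19 CPM, and Gstp1 (3.46) and Gpx1 (3.20) rose as well, all under 5 scalings. Gpx7 (-4.58), Glrx (-3.76) and Gstm1 (-2.34) fell.

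The sodium pump and other ion transport genes were mostly lower in fiber (11 of 20 fell, median -1.21). The pump subunits Atp1b2 (-3.77) and Atp1b3 (-2.11) fell, as did Kcnj13 (-6.18) and Slc12a7 (-3.51), and Atp1b1 (-0.27) was not called. Scnn1b and Kcnj6 were the 2 that rose, both under 5 scalings.

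Of 24 RNA-binding proteins studied in lens 8 rose and 2 fell. Tdrd7, of RNA granules, mutated in cataract, stood at 89.1, 75.1 and 85.2 CPM in epithelium and at 2911, 2895 and 2775 CPM in fiber (log2 5.10 ± 0.10 SE, edgeR adjusted p = 1.16e-21). Caprin2 (5.20), Rbm38 (3.08) and Rbm24 (3.06) rose as well, and these 4 held under 5 scalings. Celf1 rose under TMM (1.84), and Rbfox2 (-2.05) and Elavl2 (-2.75) fell. Of 12 nuclear and imprinted noncoding RNAs tested 4 rose and 1 fell: Malat1 (2.63, from 15855 ± 1669 to 98061 ± 3220 CPM, under 5 scalings), and, under TMM, Neat1 (2.46), Mirg (1.29) and H19 (1.03) rose, and Airn (-1.93) fell. Of 13 MHC class I and interferon genes tested 3 rose and 5 fell, and 2 of the rises held under 5 scalings. Nlrc5, an activator of MHC class I genes, stood at 7.05, 5.52 and 3.18 CPM in epithelium and at 275, 198 and 202 CPM in fiber (log2 5.40 ± 0.23 SE), while H2-K1 (-2.94), B2m (-1.60) and Irf1 (-3.61) fell. Ifit3 had 162 counts in epithelium and 0 in fiber, at least 43.7-fold lower in fiber at a floor of 3 counts over the group, again relative to the TMM-scaled library sizes.

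**Figure D3:**
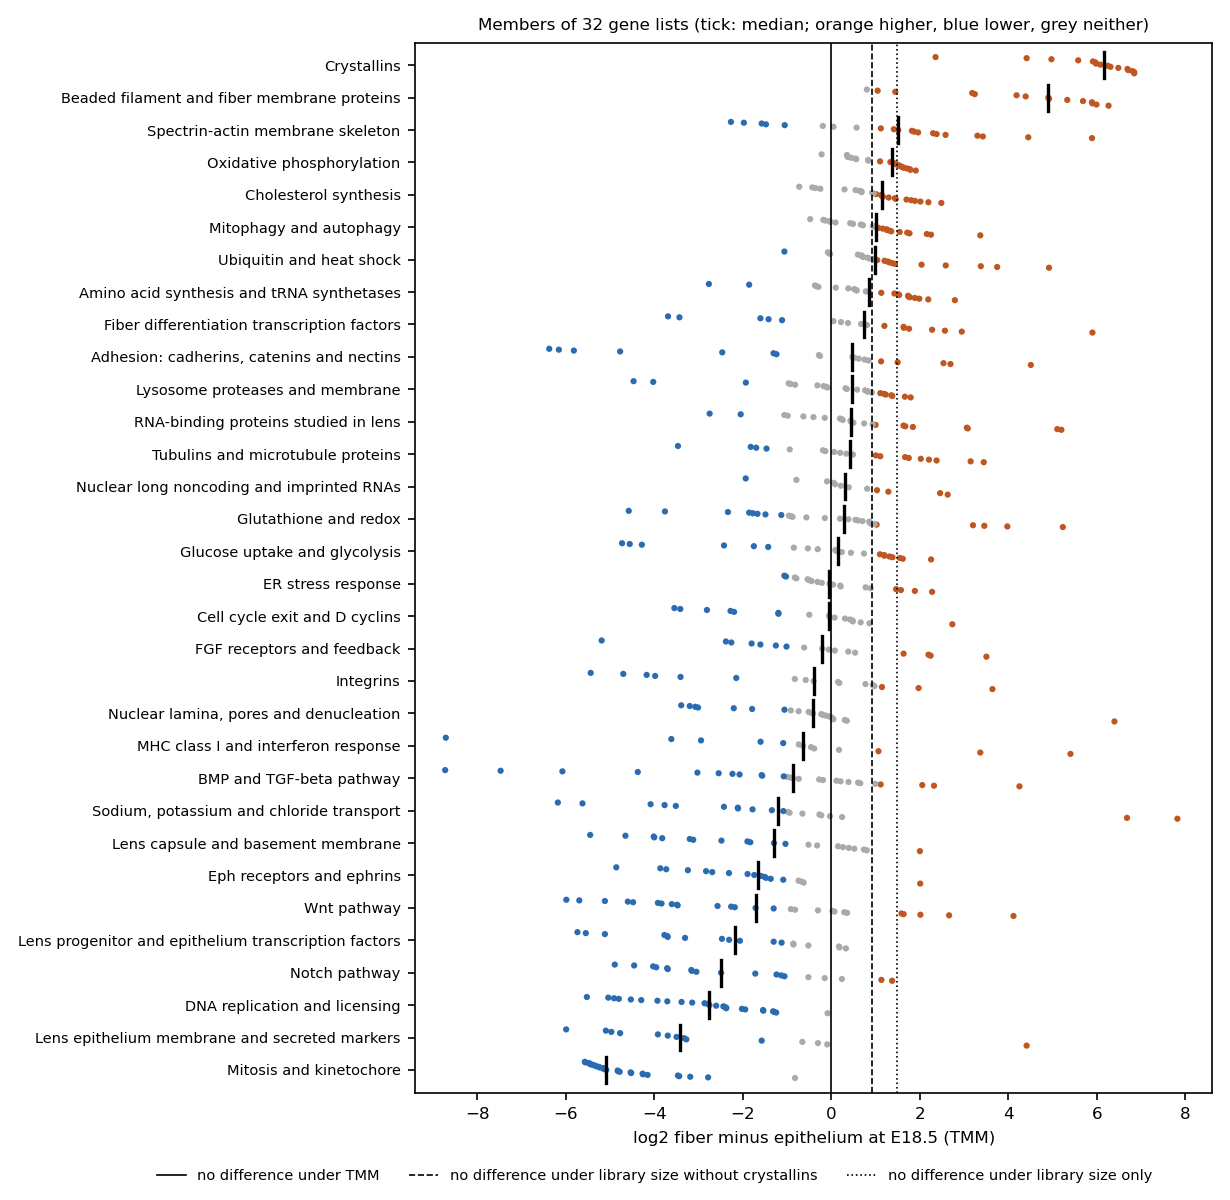
log2 fiber minus epithelium at E18.5 (TMM) of each tested member of 32 gene lists (orange higher, blue lower, grey neither; black ticks are medians, from 6.16 for crystallins to -5.08 for mitosis). The dashed and dotted lines mark no difference when libraries are scaled to the total without crystallins and to the total alone; autophagy, oxidative phosphorylation and cholesterol medians fall left of the dotted line, so their sign turns there, while crystallins stay to its right.

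A ratio of 2 genes within a library does not depend on how libraries are scaled. For 27 pairs of related genes the ratio of counts per kilobase, with 0.5 added to each count, was taken in each library. The groups did not overlap in 25 pairs (83.2% of all single genes tested did not overlap either), and in 6 the order of the pair reversed. In epithelium Gja1 and Gja3 stood about level (log2 ratio -0.02 ± 0.18, SD, n = 3), and in fiber Gja3 stood far above Gja1 (-9.18 ± 0.15). For the cadherins the log2 ratio of Cdh1 to Cdh2 went from 0.73 in epithelium to -4.57 in fiber, a reversal of order. Further reversals were Tmod3 to Tmod1 (a change of -8.12), Vim to Bfsp1 (-5.40), Sox2 to Sox1 (-3.70), Gabarap to Gabarapl1 (-2.21) and Fgfr2 to Fgfr3 (-2.12). Sox2 and Sox1 (0.13 ± 0.24, SD) and Fgfr2 and Fgfr3 (0.09 ± 0.11) stood about level in epithelium, so their order there is uncertain. The largest change was that of the water channels Aqp1 to Mip (-11.1). Notch2 to Jag1 changed by -4.42, Cdkn1a to Cdkn1b by -3.66 and Lmnb1 to Lmna by -3.12. Ldha to Ldhb changed by 3.59. The ratio of the cyclins Ccnd1 to Ccnd2 differed between the tissues by less than its spread (change 0.01), and Eno1 to Eno2 also overlapped (0.42). With 5 added to each count instead, Eno1 to Eno2 turned to -0.71 and no longer overlapped, Slc2a1 to Slc2a3, 1 of the 25 pairs, overlapped (0.55), and Cdkn1a to Cdkn1b went from -3.66 to -2.39.

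**Figure D4:**
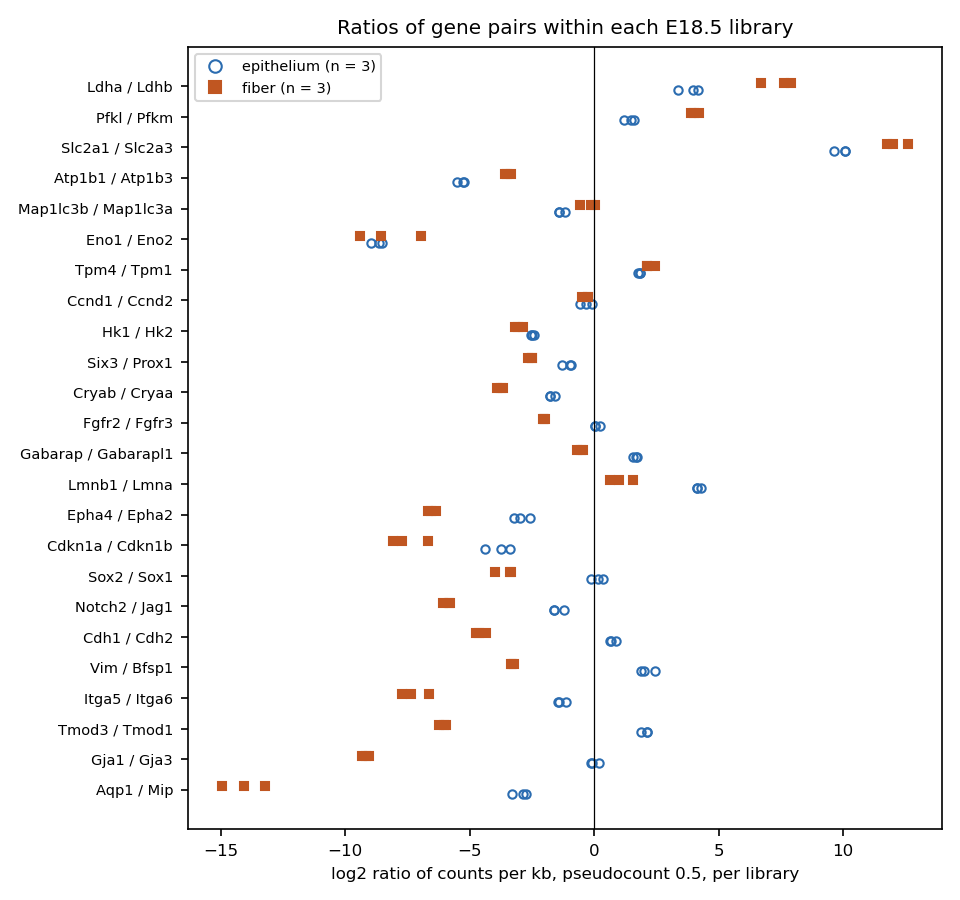
log2 ratio of 2 related genes, for 24 of the pairs, in each of the 6 E18.5 libraries (counts + 0.5, per kilobase; open circles epithelium, filled squares fiber, n = 3 each). Points right of 0 have more of the first gene; the Gja1 to Gja3 ratio moves from -0.02 to -9.18 and Ccnd1 to Ccnd2 does not separate.

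Whether the difference at E18.5 differed from that of the neighbouring stages was tested as an interaction in the same edgeR fit. Against E16.5, 116 genes had a higher fiber minus epithelium difference at E18.5 (0.933% of those tested) and 541 a lower one (4.35%), 5.29% in either direction; under library size alone the counts were 48 and 1141. In 468 of the 541 the epithelium moved more than the fiber between the stages, with a median change of 1.47 in epithelium and -0.24 in fiber (log2 of CPM + 0.5). In 88 of the 116 it was the fiber that moved more (median 0.96, epithelium -0.19). Crybb2 and Tbc1d30 led the higher ones. The beta crystallin gene Crybb2 stood at 19.3 ± 5.44 CPM in E16.5 fiber and at 1004 ± 420 CPM in E18.5 fiber, against 5.43 ± 0.493 and 21.03 ± 12.9 CPM in epithelium (interaction log2 3.76 ± 0.63 SE, edgeR adjusted p = 1.79e-04). Tbc1d30 had an interaction of 3.74 ± 0.47 SE. Its E18.5 fiber libraries were widely spread, at 258, 148 and 77.0 CPM, against 10.6 ± 0.627 CPM in E16.5 fiber. Cryab had about equal levels in both tissues at E16.5 (1685 ± 17.4 CPM in epithelium, 1821 ± 63.3 in fiber) and diverged at E18.5 (interaction 2.24 ± 0.21 SE). Crygs (2.04), the adaptor Lcp2 (1.85), the monocarboxylate transporter Slc16a3 (1.81), Slx1b (1.77) and the hyaluronidase Hyal1 (1.75) followed. Slc16a3 was lower in fiber at E16.5 (-2.34), and this difference shrank at E18.5 (-0.53, not called). A higher difference is thus not always a higher level in fiber. At E18.5 the log2 difference was above 0 in 78 of the 116 genes and in 77 of the 541. Of the 16 crystallins 5 had a higher difference and 0 a lower one.

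Of the lower ones, Tmprss11e, a serine protease, moved in both tissues: from 84.8 ± 15.7 to 53.4 ± 12.4 CPM in fiber and from 1.06 ± 0.257 to 20.8 ± 7.74 CPM in epithelium (interaction -4.95 ± 0.47 SE), and remained called higher in fiber at E18.5 (1.36). On the log2 scale its change in epithelium was the larger. Col9a2 (-4.84), Fam129a (-4.72), the pigment cell gene Pmel (-4.45), the glutamate receptor Gria1 (-4.23), Otx1 (-4.23), Sorcs1 (-4.21) and Tbx20 (-4.20) differed through the epithelium: Pmel went there from 2.02 ± 1.30 to 53.9 ± 0.897 CPM and stayed between 1.85 and 2.79 CPM in the fiber means from E16.5 to P0.5. The Tbx20 call was lost without fiber replicate 3 (edgeR adjusted p = 0.0516). The retina and ciliary margin markers, Otx1 and Tbx20 among them, summed in epithelium to between 42.5 and 161.9 CPM at E16.5 and between 986.8 and 1262 CPM at E18.5, with 10 of 16 lower in the interaction. Without the 6 of them among the leading falls, the sum lay between 16.4 and 62.2 CPM at E16.5 and between 246.4 and 365.8 CPM at E18.5, with 6 of 10 lower. The whole list was written with earlier results of these data known, so these 10 are no independent check. The pigment markers summed to between 37.3 and 43.0 CPM and between 236.8 and 272.1 CPM, with 5 of 9 lower, and without Pmel to between 36.5 and 41.0 CPM and between 183.5 and 218.5 CPM, with 4 of 8 lower. The part of these tissues in the lower differences was not tested. Endothelium markers summed to between 254.1 and 311.6 CPM and between 348.7 and 479.5 CPM, with 0 of 10 lower.

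Against P0.5 few genes differed: 3 had a higher difference at E18.5 (0.0241%) and 9 a lower one (0.0724%). These counts moved with single libraries: 6 and 7 were higher without epithelium replicates 1 and 3, and 4 and 3 were lower without epithelium replicate 2 and fiber replicate 3. Zfp365 was higher (1.04 ± 0.19 SE, edgeR adjusted p = 0.0164), with 269 ± 34.6 CPM in E18.5 fiber and 129 ± 21.5 CPM in P0.5 fiber at similar epithelium levels (30.9 ± 1.09 and 30.5 ± 1.15 CPM). Acer2, an alkaline ceramidase, was lower (-1.61 ± 0.21 SE, edgeR adjusted p = 0.00108): its epithelium level was 36.3 ± 6.26 CPM at E18.5 and 14.6 ± 0.965 CPM at P0.5. Bnip3 was lower (-1.12 ± 0.19 SE) than at P0.5 and higher than at E16.5 (1.04), and Pcdh17, a protocadherin, was lower (-1.37), a call lost without epithelium replicate 2 or fiber replicate 3. Lower here is a smaller difference and not a lower level in fiber. At E18.5 Pcdh17 (2.77) and Bnip3 (1.71) were called higher in fiber, and Acer2 (0.89) was not called. With only the libraries compared, the calls of Bnip3 (edgeR adjusted p = 0.0619) and Pcdh17 (edgeR adjusted p = 0.0629) against P0.5 were lost. The Zfp365 call was lost without fiber replicate 3 (0.97) and under library size alone (0.999), both just under 2-fold, and with the total without crystallins (0.81, edgeR adjusted p = 0.0669).

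**Figure D5:**
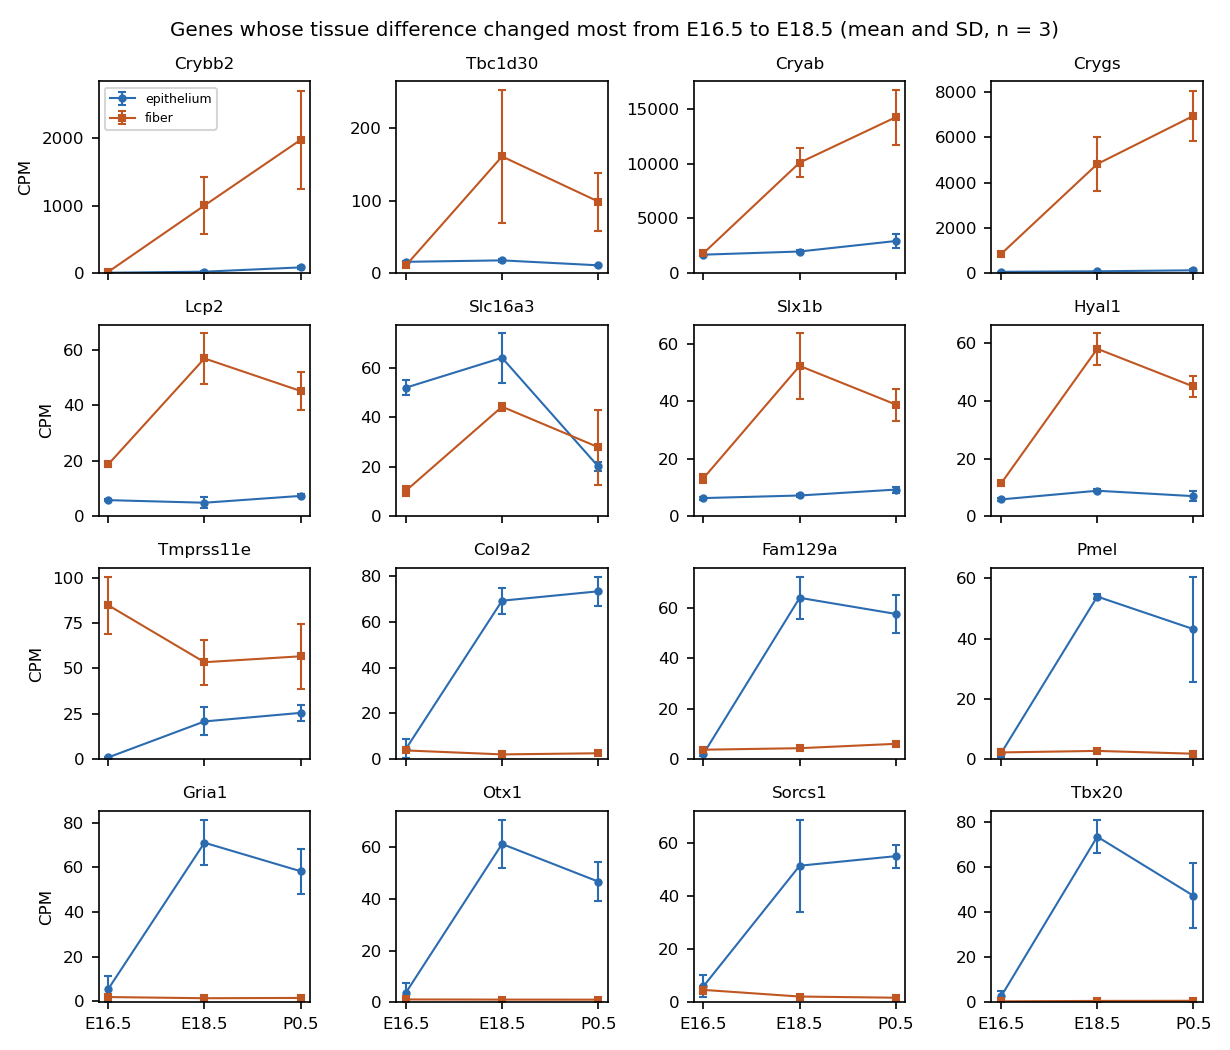
Mean level (CPM, linear axis) with SD (n = 3 libraries) in epithelium and fiber at E16.5, E18.5 and P0.5 of the 8 genes with the largest higher and the 8 with the largest lower interaction against E16.5. The upper 8 move mainly in fiber, as Crybb2 from 19.3 to 1004 CPM, and 7 of the lower 8 mainly in epithelium, as Pmel from 2.02 to 53.9 CPM. On this linear axis Tmprss11e moves in both, while on the log2 scale it moves mainly in epithelium.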

How the data were processed

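Counts per gene, 1 column per library and not normalized, were deposited by the authors for 24 lens libraries. Per the submitters' processing notes build mm10 and the tools TopHat2 2.0.13, Cufflinks 2.2.1, Cuffdiff, HTSeq 0.6.1 and Trim Galore 0.4.1 were used. Neither the counting strand nor the choice of the 12611 genes is stated there, and overlapping or near-identical genes may share reads. Genes were filtered with filterByExpr of edgeR 4.0.16 (minimum count 10, minimum total 15), which removed 184, and scaled with TMM. All libraries entered 1 quasi-likelihood fit of 8 group means (16 residual degrees of freedom), with two-sided p-values adjusted by Benjamini-Hochberg over 12427 genes. An SE is the log2 difference divided by the square root of F. No exact permutation test is used, as 0.1 is the smallest p that 3 libraries a side allow.

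Leading genes were the 15 largest called rises and falls, and the 8 largest each way per interaction, with a mean of at least 50 CPM, without predicted genes, histones, small RNAs, ribosomal RNA and immune receptor segments; members of lists and pairs and the 15 genes highest in each tissue could also be named. The members, the 32 gene lists, 8 marker lists, 28 pairs and motifs were chosen with earlier results of these data known; Zic4, Optc and Tbx20 are on the retina list for that reason. Aldoa to Aldoc was not used for lack of a length. Coordinates and lengths are GENCODE M21 (12340 genes, 97.9%, matched), and promoters RefSeq. On simulated counts for the E18.5 comparison, 95% of 3-fold and 98% of 5.7-fold changes were recovered, with 2 false calls among 12427 genes. In that simulation each gene had the same mean in every group, apart from 200 changed genes. It lacks the crystallin difference of the real libraries, so it cannot test the choice of scaling or give the false calls that scaling may cause. Alternatives (scaling, filters, fold, library sets, replicate block, DESeq2 1.42.0) are given in the closing section. Some genes are counted in their lists and not reported here by name.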

Additional observations from a re-analysis of the deposited data

Results flagged for a closer look

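These values are listed because the fiber minus epithelium difference at E18.5 differed, by the edgeR interaction test, from that at another stage. Against E16.5, 116 genes were higher and 541 lower. Higher were Crybb2 (3.76), Tbc1d30 (3.74), Cryab (2.24), Crygs (2.04), Lcp2 (1.85), Slc16a3 (1.81), Slx1b (1.77) and Hyal1 (1.75), as log2 changes of the difference. Lower were Tmprss11e (-4.95), Col9a2 (-4.84), Fam129a (-4.72), Pmel (-4.45), Gria1 (-4.23), Otx1 (-4.23), Sorcs1 (-4.21) and Tbx20 (-4.20). Against P0.5, 3 genes were higher, with Zfp365 (1.04) named, and 9 lower, with Acer2 (-1.61), Pcdh17 (-1.37) and Bnip3 (-1.12) named.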

How the results depend on the processing

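All 30 leading genes of the E18.5 comparison kept direction and call in 450 of 450 alternative values. The scalings among these alternatives could only remove rises, and the 15 leading rises were too large to lose their call by scaling. Of the list medians printed here, those of the autophagy (-0.47), oxidative phosphorylation (-0.12), cholesterol (-0.35) and ubiquitin and heat shock (-0.50) lists turned negative under library size alone, and the Eno1 to Eno2 ratio turned to -0.71 with 5 added to each count. Counts depended on scaling: library size alone gave 537 higher and 8557 lower, the total without crystallins 820 and 5977, and without crystallins and Rn45s 1004 and 5002. A 1.5-fold threshold gave 3461 higher. Against E16.5, 48 genes were higher and 1141 lower with library size alone, 54 higher without crystallins, and 403 higher at 1.5-fold. Against P0.5, higher counts were 0 with library size alone, 1 without crystallins, 13 at 1.5-fold and 7 with DESeq2's Wald test; lower counts were 3, 24, 25 and 14 in the same order, and 2 with only the libraries compared. Without each E18.5 library in turn, 2139 to 2197 genes were higher and 2980 to 3023 lower, against E16.5 113 to 130 and 473 to 557, and against P0.5 2 to 7 and 3 to 10; 25 pairs stayed apart throughout.

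With a replicate block 2167 genes were higher and 3011 lower, and against P0.5 7 were higher. Same-numbered E18.5 libraries correlated at 0.118, -0.0662 and 0.0611 in their deviations from group means, and not every library correlated best with its own number, so the numbers were not taken as pairs. Of named interaction calls, Tbx20, Zfp365, Pcdh17 and Bnip3 were lost under at least 1 alternative; the cause was not tested. Limits: 3 libraries per group, unknown pooling and possible shared reads of near-identical genes. Markers of neighbouring tissues were mostly higher in the epithelium libraries, and the part of such tissue was not tested.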
